A study of Arabidopsis with 12 samples.

Results

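The pad4 mutant of Arabidopsis thaliana was compared with wild type (Col-0) in seedlings whose libraries carry the label -Fe. The comparison rests on 6 RNA-seq libraries, 3 of pad4 and 3 of wild type, chosen by genotype and Fe label alone, out of 12 in the series. It covers 19403 loci of the 28693 in the expression table, those with 1 FPKM or more in at least 3 of the 6 libraries. FPKM scales the fragments of a locus by its transcript length and by the mapped fragments of the library. The other 6 libraries, labelled +Fe, hold the same genotypes with 3 libraries each. By the labels, seeds germinated on Murashige and Skoog agar, and seedlings then spent 7 d on complete medium (+Fe) or on medium lacking Fe (-Fe) at 24 °C with 16 h of light and 8 h of dark. The labels give no allele for pad4, and they name the material variously as shoot, as leaves and roots, and as seedlings. Nothing in them says whether libraries of a group came from separate plants or cultures, and the p-values then speak only to the spread among these libraries, which may be technical.

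PAD4 is a lipase-like protein that pairs with EDS1. The pair relays signals from intracellular immune receptors with a TIR domain and from cell surface receptors, and it amplifies the accumulation of salicylic acid and of N-hydroxypipecolic acid, the signals behind local and systemic resistance to biotrophic pathogens. Salicylic acid acts through NPR1 to raise pathogenesis-related (PR) genes. It is known to restrain the defensin branch that jasmonate and ethylene turn on together.

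The Fe labels did not match the genes that report Fe status. bHLH100, a transcription factor gene induced by Fe shortage, was at 0.122 to 0.666 FPKM in the 6 libraries labelled -Fe, against means of 997 FPKM in wild type and 1100 FPKM in pad4 labelled +Fe. FER1, a ferritin gene induced by Fe supply, stood at 271 to 333 FPKM in the libraries labelled -Fe and had means of 11 and 10.9 FPKM in wild type and pad4 labelled +Fe. The groups are therefore named by their labels throughout, and no direction is drawn from Fe supply. Each of the 6 libraries held 19096 to 19236 loci at 1 FPKM or more. The lowest FPKM values gave relative depths of 0.871 to 1.3 times that of wild-type replicate 1, and the number of reads behind them is unknown. The first principal component held 60.5% of the variance and set the 3 pad4 libraries apart from the 3 wild-type ones. The second, with 19.5%, set wild-type replicate 2 and pad4 replicate 3 apart from the other 4. With replicate 2 of each genotype labelled +Fe, these are the 4 libraries that stand apart from their groups. In such bulk samples, fewer cells of a type cannot be told apart from less RNA per cell.

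Over all loci, 5631 of 19403 were called, 29.0%, with 2742 (14.1%) higher and 2889 (14.9%) lower in pad4 (limma on log2(FPKM + 1), two-sided, Benjamini-Hochberg adjusted p under 0.05). The differences were mostly small. The median over all loci was 0.01, the median size of a called difference was 0.502 log2 units, and 763 loci (3.93%) were called with at least 1 log2 unit, of which 222 (1.14%) were higher and 541 (2.79%) lower in pad4. Falls dominated among the large differences but not in the total. Quantile normalization turned the larger side, to 3009 higher and 2850 lower, and so did leaving out the 4 libraries that stand apart, to 3324 higher and 3181 lower. The 3 libraries of each genotype did not overlap at 7387 loci (38.1%). Counts of list members and non-overlapping groups below are to be read beside these shares of all loci. In the authors' deposited table, 1047 loci are marked as significant, 311 higher and 736 lower in pad4. All loci marked there have at least 1 log2 unit, 984 of them were tested here, and 975 were called here in the same direction.

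**Figure D1:**
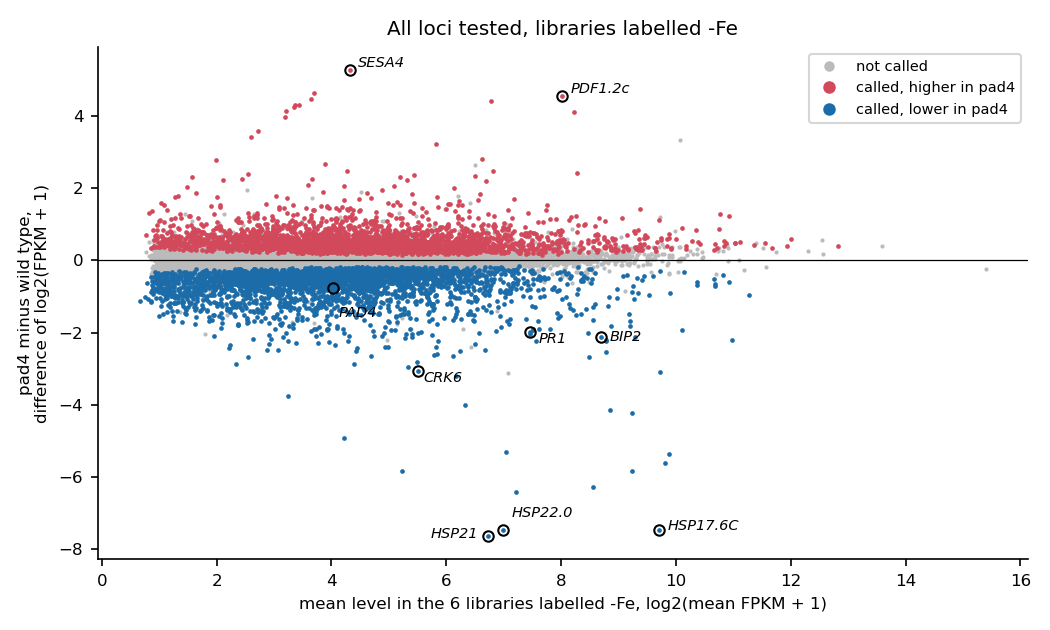
Difference between pad4 and wild type (vertical axis, difference of log2(FPKM + 1)) against the mean level in the 6 libraries labelled -Fe (horizontal axis, log2 scale) for the 19403 loci tested. Each dot is a locus, coloured by its call. Among the loci named in the plot, heat shock protein genes lie lowest, while the seed protein gene SESA4 and the defensin gene PDF1.2c lie highest.

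PAD4 itself, on chromosome 3 at chr3:19431371-19434403 (TAIR10), was measured at 19.5, 18.1 and 21.1 FPKM in wild type and at 12.2, 10.8 and 10.3 FPKM in pad4. The groups did not overlap, as at 38.1% of all loci, and PAD4 transcript was still measured in every pad4 library. PAD4 was lower by a log2 difference of -0.77 (SE 0.09, adjusted p = 0.000102), with a 95% interval from -0.97 to -0.56. Its difference labelled +Fe was -0.70, and the test of the difference between the labels gave an adjusted p of 0.772. EDS1, the partner of PAD4, was at 48.5, 61.8 and 51.8 FPKM in wild type and at 30.4, 27.9 and 34.8 FPKM in pad4, a log2 difference of -0.78 (SE 0.10, adjusted p = 0.000141). SAG101, the other partner of EDS1, differed by -0.28 (SE 0.08, adjusted p = 0.0239) and passed the threshold no longer when the 4 libraries that stand apart from their groups were left out (-0.20, adjusted p = 0.0623).

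Among the 3 genes on each side of PAD4, PUB22 was the only one called. PUB22, at chr3:19440739-19442383, encodes a U-box ubiquitin ligase that dampens immune signalling. It stood at 10.4, 12.8 and 11.2 FPKM in wild type and at 5.1, 5.02 and 5.73 FPKM in pad4, with log2 differences of -0.99 (SE 0.09) labelled -Fe and -0.98 labelled +Fe. SYP122 (a syntaxin), OEP7 (an outer envelope protein), AT3G52390 and AT3G52460 were not called. SYP122 lay near the threshold at 0.41 (adjusted p = 0.0783) and was called at 0.45 without the 4 libraries that stand apart. AT3G52440 was too low to test.

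The EDS1-PAD4 module and TIR receptor list split in both directions. Of its 20 members, 7 were higher and 5 lower in pad4, with a median of 0.02 beside 0.01 for all loci. The lower members were EDS1, PAD4, EDS1B, NRG1.2 and SAG101, and the last 3 had smaller differences than the first pair. The higher members included receptor genes. TN3, which encodes a TIR domain protein with a nucleotide binding site, was at 24.5, 25 and 26.1 FPKM in wild type and at 53.6, 52.8 and 49.9 FPKM in pad4 (log2 difference 1.02, SE 0.05, adjusted p = 1.3e-07). SNC1, a TIR receptor gene of the RPP4 cluster, was higher by 0.54 (SE 0.07, adjusted p = 0.000216). Neighbouring receptor genes of that cluster are close copies, so how reads were shared among them is uncertain.

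Genes of salicylic acid synthesis and turnover were mostly lower or not called. Of 12 members tested, 5 were lower and 1 higher, with a median of -0.21. Labelled +Fe, 5 were lower and 0 higher, with a median of -0.36, beside 5.71% lower and 3.64% higher of all loci under that label. ICS1, the isochorismate synthase that makes most pathogen-induced salicylic acid, was at 28.1, 29.3 and 28.7 FPKM in wild type and at 13.9, 11.3 and 14.8 FPKM in pad4. The groups did not overlap, as at 38.1% of all loci, and the log2 difference was -1.06 (SE 0.09, adjusted p = 4.66e-06). PBS3, which conjugates isochorismate to glutamate, had 16.6, 14.1 and 18 FPKM in wild type and 7.35, 9.18 and 5.56 FPKM in pad4 (-1.06, SE 0.15, adjusted p = 0.000223). EDS5, the exporter of isochorismate from plastids, had a log2 difference of -0.53 (SE 0.09).

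Both salicylic acid hydroxylase genes were lower by larger amounts. DMR6, the 5-hydroxylase, fell from 202, 212 and 211 FPKM to 62.6, 71.6 and 67.7 FPKM (-1.62, SE 0.06). DLO1, the 3-hydroxylase, fell from 22.7, 23.9 and 22 FPKM to 5.37, 4.51 and 6.2 FPKM (-1.92, SE 0.11). UGT74F2, a salicylic acid glucosyltransferase, was the member that rose, at 7.53, 8.21 and 8.88 FPKM in wild type and 17.7, 16.8 and 16.1 FPKM in pad4 (0.96, SE 0.08, adjusted p = 4.27e-06).

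All 4 genes of the N-hydroxypipecolic acid list were lower, with a median of -1.24. FMO1, the monooxygenase that makes the signal, was at 15.2, 14.1 and 16.2 FPKM in wild type and at 6.47, 5.98 and 5.18 FPKM in pad4 (-1.23, SE 0.10, adjusted p = 3.29e-06). ALD1, the aminotransferase that starts the pathway, was at 6.29, 6.89 and 5.97 FPKM against 1.7, 1.02 and 1.96 FPKM (-1.54, SE 0.13). UGT76B1, which glucosylates both N-hydroxypipecolic acid and salicylic acid, had a log2 difference of -1.24 (SE 0.14). SARD4, the reductase of the pathway, shares its locus with AT5G52800 in the table, and that joint locus was lower by -0.80 (SE 0.11).

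Downstream of salicylic acid, 12 of 21 NPR1 signalling and PR members were lower and 0 were higher in pad4, with a median of -0.34; leaving out wild-type replicate 1 or 2 gave 1 higher member, and leaving out pad4 replicate 1 or quantile normalization gave 2. PR1, the standard marker of salicylic acid signalling, was at 272, 332 and 236 FPKM in wild type and at 69.3, 65.0 and 75.1 FPKM in pad4. The groups did not overlap, as at 38.1% of all loci, and the log2 difference was -1.98 (SE 0.14, adjusted p = 1.26e-06). PR2, a beta-glucanase, showed 139, 177 and 138 FPKM against 39.3, 29.8 and 40.4 FPKM (-2.02, SE 0.15). PR5, a thaumatin-like protein, moved less, with a log2 difference of -0.54 (SE 0.10, adjusted p = 0.00193).

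NIMIN2 and NIMIN1, which bind and modulate NPR1, were lower by log2 differences of -1.58 (SE 0.09) and -1.29 (SE 0.16). NPR1 itself stood at 41.4, 54.3 and 41.2 FPKM in wild type and at 37.9, 33.0 and 42.9 FPKM in pad4. The groups overlapped, the difference of -0.26 was not called (adjusted p = 0.222), and it was called at -0.22 (adjusted p = 0.0475) without the 4 libraries that stand apart.

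**Figure D2:**
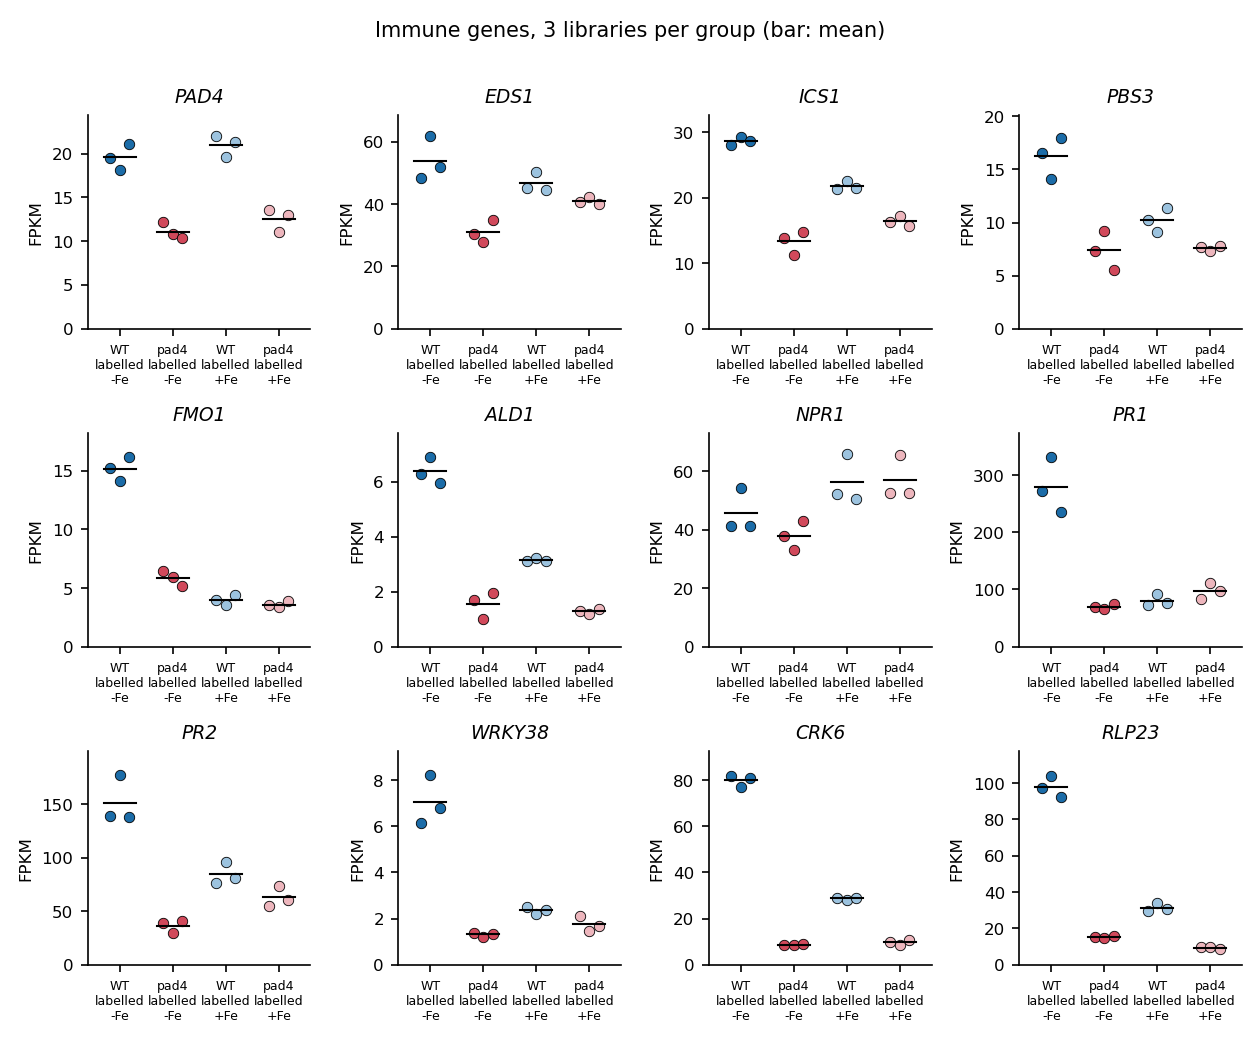
FPKM of 12 immune genes (vertical axes, starting at 0) in the 4 groups of 3 libraries. Each point is a library and each bar a group mean; PR1 stands at 236 to 332 FPKM in wild type labelled -Fe and at 65.0 to 75.1 FPKM in pad4 labelled -Fe, while the NPR1 groups overlap.

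WRKY transcription factors bind W-box sequences and carry much of the immune transcriptional response. Of 48 tested, 29 were lower and 4 higher in pad4, 68.8% called, with a median of -0.49. WRKY38, a target of NPR1, was at 6.13, 8.21 and 6.78 FPKM in wild type and at 1.39, 1.19 and 1.35 FPKM in pad4 (-1.79, SE 0.12, adjusted p = 7.01e-07). WRKY6 went from 50.2, 57.2 and 53.9 FPKM to 21.6, 20.1 and 21.1 FPKM (-1.32, SE 0.06). WRKY30 had a log2 difference of -1.19 (SE 0.09). The 4 higher members were WRKY26, WRKY65, WRKY33 and WRKY69. WRKY26, known for a part in heat tolerance, was at 4.36, 5.64 and 4.83 FPKM in wild type and at 13.0, 12.7 and 13.8 FPKM in pad4 (1.26, SE 0.09). WRKY33, a regulator of camalexin, was higher by 0.51 (SE 0.14, adjusted p = 0.021). The count of higher members dropped to 2 without wild-type replicate 1 or without replicate 3.

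Cysteine-rich receptor-like kinases (CRKs) are plasma membrane kinases, many of them induced by salicylic acid. Of 36 tested, 24 were lower and 5 higher, 80.6% called, with a median of -0.72. CRK6 was at 81.9, 77.2 and 80.7 FPKM in wild type and at 8.62, 8.7 and 8.8 FPKM in pad4. Its log2 difference of -3.06 (SE 0.07, adjusted p = 1.91e-10) placed it among the 10 loci with the smallest p. CRK7 dropped from 23.0, 28.4 and 22.8 FPKM to 4.12, 4.12 and 4.79 FPKM (-2.26, SE 0.11). CRK45 and CRK38 were lower by -2.24 (SE 0.14) and -1.88 (SE 0.10). CRK38 was at 0.722, 0.847 and 0.828 FPKM in pad4. It passed the filter through the wild-type libraries alone, so its call adds no support. CRK genes lie in tandem arrays of similar copies, so reads could be split between them.

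Pattern recognition and cell surface immunity genes gave 13 lower and 4 higher of 26 tested, with a median of -0.41. The 4 higher became 2 when wild-type replicate 1, wild-type replicate 3 or pad4 replicate 3 was left out. RLP23, the receptor protein for the nlp20 peptide of microbial NLP proteins, was at 97.1, 104 and 92.4 FPKM in wild type and at 15.1, 14.9 and 16.0 FPKM in pad4 (-2.60, SE 0.08, adjusted p = 1.52e-09). FRK1, a kinase gene used as a marker of flagellin responses, was at 50.4, 43.9 and 47.1 FPKM against 10.6, 13.3 and 9.41 FPKM (-2.0, SE 0.12). MLO12, a member of the mildew susceptibility family, and MPK11, a mitogen-activated protein kinase, had differences of -1.47 (SE 0.06) and -1.02 (SE 0.06). All 4 were also lower labelled +Fe.

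Camalexin is the indolic phytoalexin that gave the pad mutants their name. Of 8 list members, 4 were lower and 2 higher. PAD3, the last enzyme of the pathway, was at 136, 157 and 151 FPKM in wild type and at 60.4, 50.7 and 59.4 FPKM in pad4 (-1.37, SE 0.08, adjusted p = 2.47e-07). CYP71A12, an earlier enzyme, was lower by -1.60 (SE 0.08), and CYP71A13, whose locus is joined to AT2G30760, by -1.76 (SE 0.11). MYB51, an activator of indole glucosinolate synthesis, was higher, with 41.1, 52.0 and 38.8 FPKM in wild type and 82.1, 80.1 and 91.2 FPKM in pad4 (0.94, SE 0.12).

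Chaperones of the endoplasmic reticulum, which fold secreted proteins and receptors, were lower without exception: 11 of 11 were called, with a median of -1.68. BIP2, an Hsp70 of the endoplasmic reticulum, was at 683, 711 and 620 FPKM in wild type and at 155, 140 and 165 FPKM in pad4 (-2.12, SE 0.08, adjusted p = 9.7e-09). BIP1, its close copy, showed 733, 760 and 679 FPKM against 214, 184 and 219 FPKM (-1.81, SE 0.08). BIP3, the stress-induced copy, and SDF2, a partner in the folding of receptors, were lower by -1.74 (SE 0.09) and -1.39 (SE 0.07). Labelled +Fe, 4 of the 11 were called lower and 0 higher (beside 5.71% and 3.64% of all loci), with a median of -0.20. There BIP2 differed by -0.29, BIP3 by -0.82 and SDF2 by -0.06. The interaction was called for 10 of the 11 members, beside 15.1% of all loci.

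In the jasmonate and ethylene defensin branch the direction was the opposite. Of 13 members tested, 9 were higher and 1 lower, with a median of 1.18. PDF1.2a, the defensin used as the branch's marker, was at 35.3, 20.2 and 40.0 FPKM in wild type and at 674, 680 and 344 FPKM in pad4 (4.10, SE 0.35, adjusted p = 5.3e-06). PDF1.2c had 22, 12.1 and 24.4 FPKM against 514, 689 and 278 FPKM (4.55, SE 0.36). PDF1.3 had 11.6, 5.02 and 9.3 FPKM against 226, 280 and 121 FPKM (4.43, SE 0.34). For each of these 3, wild-type replicate 2 was the lowest of its group and pad4 replicate 3 the lowest of its own, and the groups stayed well apart. PDF1.2b was higher by 3.24 (SE 0.45). These defensin genes are near-identical copies, so the split of reads between them is uncertain.

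PR4, a chitin-binding protein of the same branch, rose from 327, 305 and 350 FPKM to 824, 755 and 651 FPKM (1.18, SE 0.09). ERF6, an ethylene response factor, rose from 10.7, 11.3 and 9.12 FPKM to 33.7, 25.2 and 29.0 FPKM (1.41, SE 0.10). ORA59, the factor that integrates jasmonate and ethylene on the defensin promoters, did not follow. Its values were 5.67, 6.9 and 5.66 FPKM in wild type and 6.87, 5.73 and 6.88 FPKM in pad4, and its difference of 0.08 was not called (adjusted p = 0.619). ERF2 was the member that was lower, at -0.85 (SE 0.09). Labelled +Fe, the same list had 1 higher and 6 lower members (beside 3.64% and 5.71% of all loci) and a median of -0.47. There PDF1.2a differed by -1.55.

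The jasmonate synthesis and turnover genes went both ways. Of 17 tested, 5 were higher and 4 lower, 52.9% called, with a median of 0.09. LOX4, a lipoxygenase, and AOS, the allene oxide synthase, were higher by 0.73 (SE 0.07) and 0.34 (SE 0.06). AOC3, an allene oxide cyclase, was at 74.7, 72.5 and 77.3 FPKM in wild type and at 32.0, 32.2 and 31.4 FPKM in pad4 (-1.21, SE 0.06, adjusted p = 6.05e-08). CYP94C1, which oxidises the active hormone, was lower by -1.50 (SE 0.09).

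In the MYC2 and JAZ branch, which answers wounding and insects, 7 of 19 were lower and 0 higher, 36.8% called, with a median of -0.16. Leaving out wild-type replicate 2 or pad4 replicate 2 left 3 lower members, and leaving out pad4 replicate 3 gave 2 higher ones. TAT3, a tyrosine aminotransferase, was at 53.7, 37.0 and 62.8 FPKM in wild type and at 13.9, 14.9 and 8.84 FPKM in pad4 (-1.94, SE 0.24). JAZ1, a repressor of MYC2, was lower by -0.67 (SE 0.12), CORI3 by -0.38 (SE 0.11) and MYC4 by -0.37 (SE 0.11), and the last 2 passed the threshold no longer without wild-type replicate 2. MYC2 (-0.19, adjusted p = 0.118) and VSP2 (0.21, adjusted p = 0.131), a storage protein gene downstream of it, were not called. MYC2 was called without pad4 replicate 1 (-0.26, adjusted p = 0.046). VSP2 was called without wild-type replicate 1 (0.30, adjusted p = 0.0484).

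Abscisic acid genes were lower as a group. Of 31 members tested, 22 were lower and 2 higher, 77.4% called, with a median of -1.01. NCED3, the rate-limiting dioxygenase of abscisic acid synthesis under drought, was at 23.5, 22.7 and 22.3 FPKM in wild type and at 6.52, 5.38 and 4.58 FPKM in pad4 (-1.89, SE 0.09, adjusted p = 7.36e-08). RD26, a NAC factor induced by the hormone, was at 63.6, 66.6 and 57.8 FPKM against 17.1, 12.4 and 14.1 FPKM (-2.04, SE 0.11). PP2CA and HAB1, phosphatases of the receptor complex, were lower by -1.49 (SE 0.07) and -1.04 (SE 0.06). The 2 higher members, CYP707A3 (0.63, SE 0.12) and CYP707A1 (0.39, SE 0.11), encode enzymes that break abscisic acid down, and 1 of them remained without wild-type replicate 1 or 3.

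Auxin genes gave 13 lower and 3 higher of 24 tested, with a median of -0.37. GH3.3 and GH3.5 conjugate auxin to amino acids, and GH3.5 also acts on salicylic acid. GH3.3 was at 79.1, 79.9 and 75.1 FPKM in wild type and at 25.5, 23.0 and 22.9 FPKM in pad4 (-1.67, SE 0.06, adjusted p = 8.71e-09). GH3.5 was at 57.2, 45.1 and 57.1 FPKM against 16.9, 15.4 and 14.4 FPKM (-1.70, SE 0.12). The auxin-induced repressors IAA5 and IAA6 were lower by -1.32 (SE 0.14) and -1.69 (SE 0.19). IAA6 was at 0.881, 0.689 and 0.546 FPKM in pad4. It passed the filter through the wild-type libraries alone, so its call adds no support.

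Of 20 ethylene genes, 9 were lower and 4 higher (65.0% called, beside 29.0% of all loci), with a median of -0.11. The synthase genes ACS7 (-1.10, SE 0.09), ACS8 (-1.59, SE 0.14) and ACS2 (-1.07, SE 0.12) and EBF2 (-0.90, SE 0.11), an F-box gene that removes the factor EIN3, were lower. ACS2, at 0.497, 0.488 and 0.188 FPKM in pad4, passed the filter through the wild-type libraries alone. Its call adds no support. Among 13 gibberellin genes, 5 were lower and 3 higher (61.5% called). The receptor gene GID1B (-0.88, SE 0.07) and the synthesis genes GA3OX1 (-1.17, SE 0.10) and GA20OX1 (-0.99, SE 0.15) were lower. GASA6, a gibberellin-regulated peptide gene, was at 26.1, 30.4 and 26.3 FPKM in wild type and at 74.7, 66.6 and 72.4 FPKM in pad4 (1.34, SE 0.12). Of 8 type-A cytokinin response regulators, 1 was called (12.5%, beside 29.0% of all loci), ARR6 at 0.46 (SE 0.10, adjusted p = 0.00552).

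Fe genes were near the background. Of 40 Fe uptake and Fe-deficiency genes, 27 passed the filter, and 8 were called (29.6%), 2 higher and 6 lower, with a median of -0.07. F6H1, which makes the coumarin scopoletin for Fe acquisition, was at 6.68, 5.81 and 7.61 FPKM in wild type and at 3.54, 2.49 and 2.41 FPKM in pad4 (-1.02, SE 0.13). FIT, the root factor that drives uptake, was lower by -0.83 (SE 0.16, adjusted p = 0.00237) at 3.41 FPKM or less, and BTSL2, a ubiquitin ligase that limits uptake, by -0.41 (SE 0.08). URI, a bHLH factor above the uptake genes, was higher by 0.50 (SE 0.07). The other higher member, IMA1, lost its call without wild-type replicate 1 or 2 or without pad4 replicate 1 or 2, each of which left URI alone.

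IRT1, the main Fe transporter of roots, was at 0 to 0.0682 FPKM and was too low to test, as was bHLH100. Of 11 genes of Fe storage and Fe-dependent enzymes, 2 were called (18.2%, beside 29.0% of all loci). The vacuolar transporter-like genes VTL5 (0.69, SE 0.11) and VTL2 (-0.43, SE 0.13) went in opposite directions. VTL2 lost its call without replicate 1 or 3 of either genotype. FER1, at 294, 333 and 307 FPKM in wild type and 301, 271 and 311 FPKM in pad4, was not called (-0.08, adjusted p = 0.469).

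Photosynthesis genes were higher in pad4 where they were called. Of 36 members, 18 were higher and 0 lower, with a median of 0.38 and a range of 0.08 to 0.90. PRK, the Calvin cycle phosphoribulokinase, was at 722, 808 and 700 FPKM in wild type and at 1170, 1100 and 1200 FPKM in pad4 (0.64, SE 0.08, adjusted p = 0.000143). PSBX and PSAK, subunits of photosystems II and I, were higher by 0.53 (SE 0.07) and 0.46 (SE 0.08), and FD2, the leaf ferredoxin, by 0.50 (SE 0.09). The count depended on the libraries. It was 31 without the 4 libraries that stand apart, 10 without wild-type replicate 2, 10 without pad4 replicate 1 and 11 without pad4 replicate 2. It was 6 with the 6 libraries labelled -Fe fitted alone.

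The summed level of these 36 green tissue genes was 51400 to 60800 FPKM in wild type and 64500 to 80500 FPKM in pad4. The summed level of the 18 root marker genes was 42.3 to 50.5 FPKM in wild type and 55.5 to 59.3 FPKM in pad4. Of the root markers, 12 were below 1 FPKM in all 6 libraries and 5 were tested. Of those 5, 2 were called, both higher: NRT2.1, a nitrate transporter (0.43, SE 0.09), and PHO1, a phosphate exporter of the root stele (0.28, SE 0.08). NRT2.1 alone was called without wild-type replicate 1 or 3 or pad4 replicate 3. Both marker sums moved with genotype, and their part in the results was not tested.

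Among 12 genes of senescence and sugar starvation, 3 were higher and 6 lower (75.0% called, beside 29.0% of all loci). DIN10, a raffinose synthase family gene induced in the dark and by sugar shortage, was at 46.6, 40.8 and 44.1 FPKM in wild type and at 150, 144 and 132 FPKM in pad4 (1.68, SE 0.07, adjusted p = 1.66e-08). DIN1, another dark-induced gene, was at 66.7, 61.4 and 52.8 FPKM against 154, 146 and 149 FPKM (1.30, SE 0.09). NAP and ORE1, NAC factors that promote leaf senescence, were lower by -1.96 (SE 0.18) and -0.97 (SE 0.15). DIN10 was also higher labelled +Fe, by 1.34. BXL1, a cell wall beta-xylosidase gene named after its values were seen, resembled DIN10, with 30.0, 26.9 and 30.1 FPKM in wild type and 161, 151 and 140 FPKM in pad4 (2.34, SE 0.08).

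Phenylpropanoid and anthocyanin genes gave 12 lower and 2 higher of 19, with a median of -0.55. PAL1, the entry enzyme, was at 127, 103 and 130 FPKM in wild type and at 65.5, 58.4 and 52.0 FPKM in pad4 (-1.02, SE 0.11). 4CL3 (-1.46, SE 0.06) and FLS1 (-1.10, SE 0.07) act in flavonoid and flavonol synthesis, and PAP2 (-1.90, SE 0.14) is a MYB activator of anthocyanin. All 4 were also lower labelled +Fe, where the list's median was -0.59.

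Glucosinolate genes were called at about the share of all loci, with 5 higher and 1 lower of 21 (28.6%, beside 29.0%). CYP81F2, an indole glucosinolate hydroxylase, was higher by 0.90 (SE 0.08), and MAM1 (0.73, SE 0.09), CYP79F1 (0.48, SE 0.08) and CYP83A1 (0.40, SE 0.08) of the aliphatic branch were higher too. Without the 4 libraries that stand apart 8 members were higher. UGT74B1 was the lower member (-0.39, SE 0.11), and it lost its call without replicate 2 of either genotype.

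Of 13 glutathione transferases, 6 were lower and 3 higher (69.2% called, beside 29.0% of all loci). GSTU4 (-1.20, SE 0.09), GSTU11 (-1.15, SE 0.11) and GSTU10 (-0.78, SE 0.13) were lower, and GSTF3 was higher (0.89, SE 0.12). GSTU11, at 0.869, 0.574 and 0.516 FPKM in pad4, passed the filter through the wild-type libraries alone. Its call adds no support. Of 14 phosphate starvation genes, 5 were lower and 1 higher (42.9% called), and the 5 became 3 without wild-type replicate 3. The phosphate transporters PHT1;4 (-0.79, SE 0.07) and PHT1;5 (-0.66, SE 0.13) and SQD1 of sulfolipid synthesis (-0.34, SE 0.06) were lower, while SPX1, a phosphate sensor, was higher (0.50, SE 0.11). PHT1;5, at 0.507, 0.414 and 0.594 FPKM in pad4, also passed the filter through the wild-type libraries alone. Its call adds no support.

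Of 17 clock genes, 5 were higher and 3 lower (47.1% called, beside 29.0% of all loci). RVE1, a morning MYB factor that links the clock to auxin, was at 6.1, 5.99 and 6.17 FPKM in wild type and at 13.0, 12.4 and 13.1 FPKM in pad4 (0.97, SE 0.07). RVE4 (0.51, SE 0.07) and PRR9 (0.78, SE 0.09), a morning repressor, were higher, and GI, an evening gene, was lower (-0.91, SE 0.08). Cell cycle genes were mostly not called. Of 13, 15.4% were called, beside 29.0% of all loci. The 2 called were higher, the mitotic genes CDC20.1 (0.46, SE 0.10) and CYCB1;2 (0.31, SE 0.09). CYCB1;2 lost its call without replicate 2 or 3 of either genotype.

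Of 10 early stress and touch genes, 5 were higher and 1 lower (60.0% called, beside 29.0% of all loci). ZAT6, a zinc finger repressor induced by many stresses, was at 18.7, 14.3 and 19.7 FPKM in wild type and at 73.5, 69.3 and 53.6 FPKM in pad4 (1.84, SE 0.13, adjusted p = 1.06e-06). Its relatives ZAT12 (0.87, SE 0.14) and ZAT10 (0.68, SE 0.15) and the touch-induced wall enzyme gene TCH4 (0.97, SE 0.19) were higher as well. CBF1, a cold regulator, was lower (-0.58, SE 0.19), a call that went without wild-type replicate 2 or 3 or pad4 replicate 1 or 2.

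**Figure D3:**
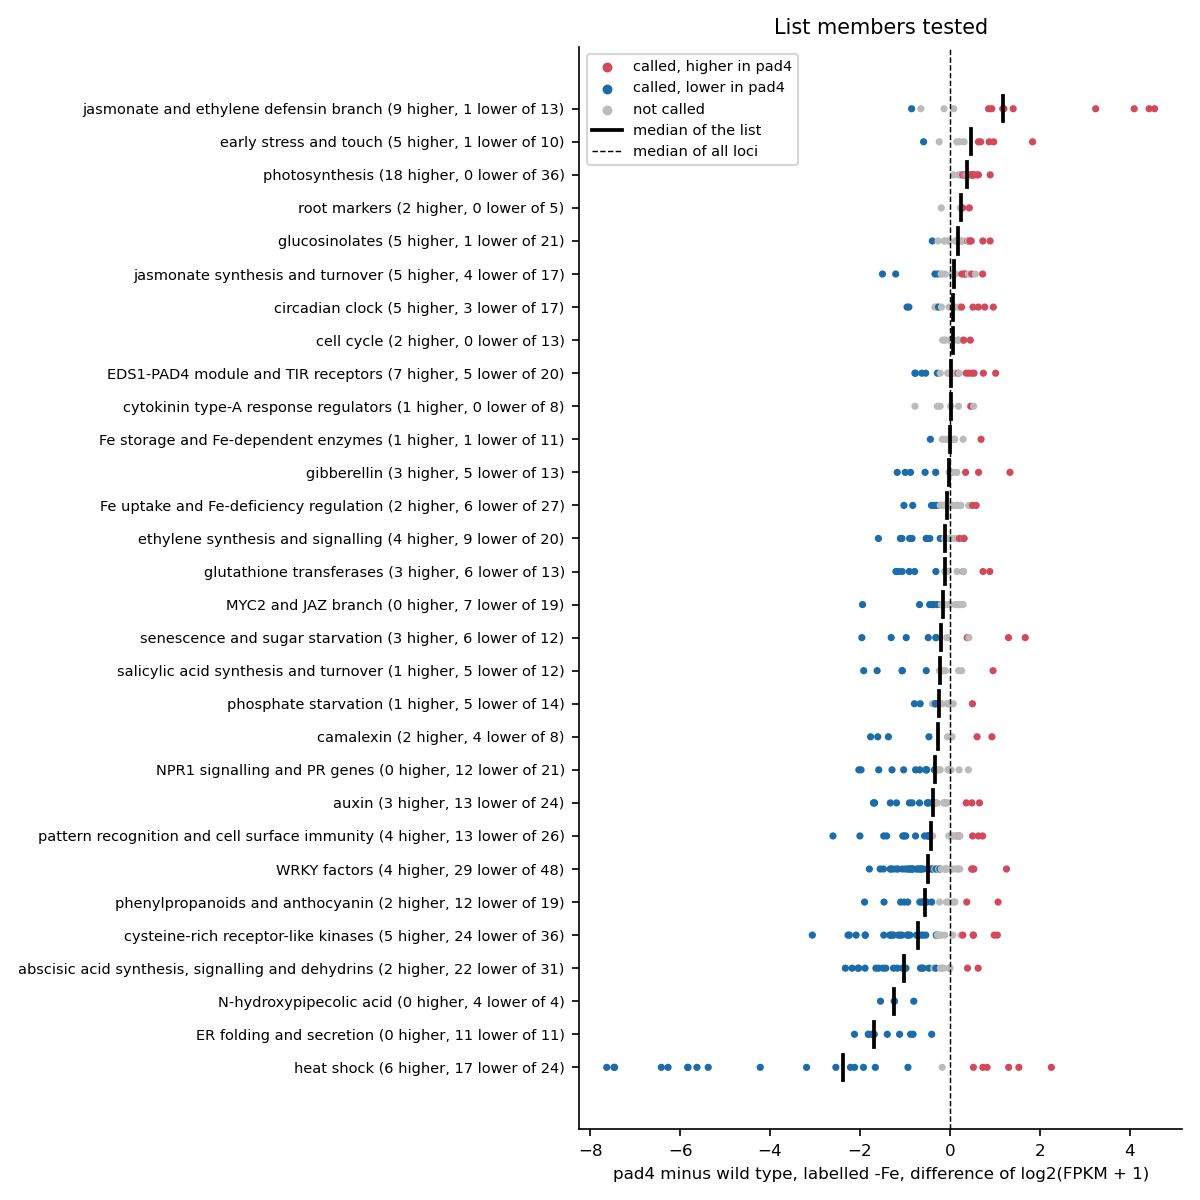
Difference between pad4 and wild type labelled -Fe (horizontal axis, difference of log2(FPKM + 1)) for each tested member of the 30 gene lists. Points are loci coloured by call, thick ticks are list medians and the dashed line is the median of all loci; medians run from -2.37 for heat shock to 1.18 for the defensin branch.

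Heat shock genes showed the largest falls among called single-gene loci with a symbol. Heat shock factors switch on small heat shock proteins, which hold unfolding proteins until larger chaperones refold them. Of 24 members tested, 17 were lower and 6 higher, 95.8% called, with a median of -2.37. That count holds members such as HSP21, HSP22.0 and HSP26.5 that had no pad4 library at 1 FPKM or more. They passed the filter through the wild-type libraries alone, so their calls add no support. Their differences depend on the 1 added in log2(FPKM + 1). HSP21, the small chaperone of chloroplasts, was at 215, 230 and 183 FPKM in wild type and at 0.087, 0 and 0.0817 FPKM in pad4 (-7.63, SE 0.15). HSP22.0, of the endoplasmic reticulum, was at 239, 274 and 247 FPKM against 0.354, 0.635 and 0.327 FPKM (-7.47, SE 0.10). HSP17.6C, of the cytosol, was at 1720, 1810 and 1470 FPKM against 8.46, 7.13 and 10 FPKM (-7.46, SE 0.15). No pad4 library came near the lowest wild-type library for any of these.

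The other small heat shock genes behaved alike. The cytosolic HSP17.6B, HSP17.6II, HSP17.4, HSP18.2 and HSP17.6A were lower by -5.62, -5.37, -5.83, -6.42 and -4.22, and the organelle genes HSP23.6 and HSP26.5 by -6.27 and -5.83 (SE 0.10 to 0.17). Outside the list, Hsp70b, a cytosolic chaperone, was at 247, 295 and 226 FPKM in wild type and at 5.19, 4.55 and 6.64 FPKM in pad4 (-5.32, SE 0.15). APX2, an ascorbate peroxidase under heat shock factor control, was at 33.0, 33.5 and 38.3 FPKM against 0.233, 0 and 0.364 FPKM (-4.91, SE 0.15). APX2 too passed the filter through the wild-type libraries alone. Among the 12 largest falls of called single-gene loci with a symbol, 10 were small heat shock genes. Hsp70b and APX2 were the remaining pair. The cytosolic genes are similar in sequence, and reads could be split between them.

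The 6 higher members of the heat shock list, named after their values were seen, were regulators rather than chaperones. HSFA2, the factor that prolongs the response, was at 76.9, 80.8 and 72.4 FPKM in wild type and at 117, 103 and 113 FPKM in pad4 (0.52, SE 0.09, adjusted p = 0.00144). HSFB2B, a repressor, was at 3.06, 3.83 and 3.18 FPKM against 20.5, 17 and 22.1 FPKM (2.26, SE 0.14). DREB2A, which acts above HSFA3, was higher by 1.53 (SE 0.20), HSFA7A by 1.31 (SE 0.31), HSFB2A by 0.83 (SE 0.12) and the coactivator MBF1C by 0.73 (SE 0.14). HSFB1 was lower by -1.66 (SE 0.09).

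In the libraries labelled +Fe, HSP21 and HSP17.6C lay between the levels of the genotypes labelled -Fe. HSP21 had means of 1.3 FPKM in wild type and 1.45 FPKM in pad4 labelled +Fe, against 0.0562 FPKM in pad4 labelled -Fe. HSP17.6C had 29.6 and 42.5 FPKM, against 8.53 FPKM. For both genes the 3 wild-type libraries labelled -Fe were the highest of all 12. Labelled +Fe, 17 of the 24 heat shock members were higher in pad4 and 0 lower, with a median of 0.77. Of all loci labelled +Fe, 3.64% were higher and 5.71% lower. The interaction was called for 21 of 24 members, beside 15.1% of all loci. It contains the difference labelled -Fe, so the calls of members such as HSP21, HSP22.0 and HSP26.5 add no support here either.

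Among loci with a symbol, most of the largest rises beside the defensins belonged to seed protein genes, whose products fill protein bodies and oil bodies of the maturing seed. SESA4, an albumin gene, was listed at 0 in all 3 wild-type libraries and at 32.8, 44.2 and 36.8 FPKM in pad4. SESA2, at 21.1, 25.3 and 25.7 FPKM in pad4, SESA3, at 15.1, 23.7 and 16.4 FPKM, and the cruciferin CRU3, at 17.2, 18.2 and 20.6 FPKM, were also listed at 0 in wild type labelled -Fe. Labelled +Fe, SESA2 was measured in both genotypes, with means of 10.6 FPKM in wild type and 12.8 FPKM in pad4. The cruciferins CRA1 and CRU2 were at most 0.148 FPKM in wild type and at 19.6, 22.8 and 26.5 FPKM and 10.1, 12.6 and 10.9 FPKM in pad4. The oil body proteins OLEO1 and OLEO2 were at most 0.144 FPKM in wild type and at 15.6, 13.2 and 19.4 FPKM and 10.5, 8.7 and 11.1 FPKM in pad4. No fold is given against values of 0 or near 0.

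The 12 albumin, cruciferin and oleosin loci (SESA1 to SESA5, CRA1, CRU2, CRU3 and OLEO1 to OLEO4) summed to 7.54 to 7.96 FPKM in wild type and to 166 to 194 FPKM in pad4. Labelled +Fe they summed to 16.9 to 18.7 FPKM in wild type and 18.9 to 21.8 FPKM in pad4. SESA5, like SESA2, was at 0 in wild type labelled -Fe only. Labelled +Fe it had means of 3.54 FPKM in wild type and 4.71 FPKM in pad4. The set was put together after values were seen. Of the 11 tested, 10 had no wild-type library labelled -Fe at 1 FPKM or more and passed the filter through the pad4 libraries alone. Neither a count of calls nor a p-value is therefore read for the set. ABI3, the factor that drives these genes in seeds, was listed at 0 in wild type and at 0.136, 0.195 and 0.252 FPKM in pad4, below the filter. LEC1, another seed regulator, and HSFA9 were listed at 0 in all 6. Others looked up with them were below the filter too. In wild type and pad4, means were 0.0864 and 0.0597 FPKM for LEC2 and 0.0288 and 0.0344 FPKM for EM1. FUS3 had means of 0 and 0.0794 FPKM, and of 0.147 and 0.245 FPKM labelled +Fe.

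**Figure D4:**
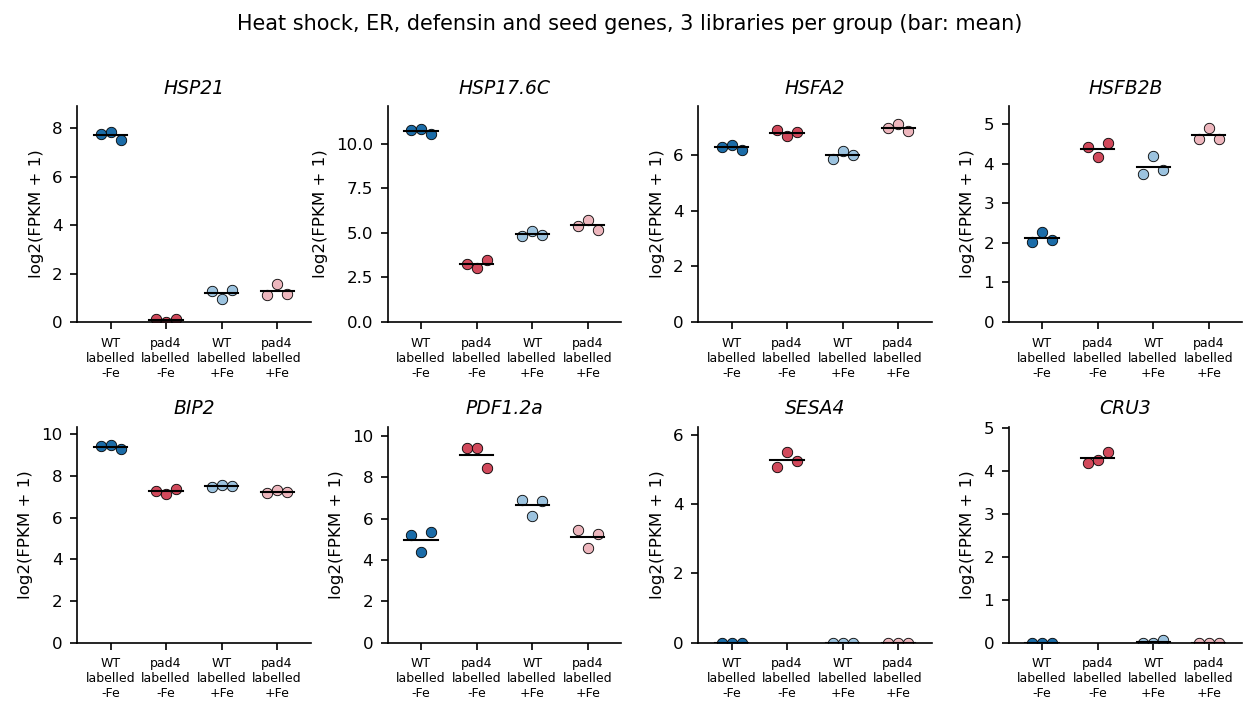
Levels of 8 genes (vertical axes, log2(FPKM + 1), starting at 0) in the 4 groups, with a point per library and a bar at the mean. The small heat shock genes HSP21 and HSP17.6C and the chaperone BIP2 are high in wild type labelled -Fe, PDF1.2a is high in pad4 labelled -Fe, and the seed genes SESA4 and CRU3 stand clear of 0 in pad4 labelled -Fe.

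The genotype difference was set beside that in the libraries labelled +Fe, which share no library with it. Labelled +Fe, 1814 of the same loci were called (9.35%), 707 (3.64%) higher and 1107 (5.71%) lower. The interaction, which tests whether the genotype difference differs between the labels, was called at 2926 loci (15.1%), 1420 (7.32%) in the direction of a higher pad4 value labelled -Fe and 1506 (7.76%) in the other. Called under both labels were 1214 loci, 21.6% of those called labelled -Fe and 66.9% of those called labelled +Fe. Of these, 947 had the same direction, 587 lower and 360 higher, and 267 had opposite directions. The count labelled +Fe depended on how the libraries were treated. It was 3149 without the 4 that stand apart and 6831 with array weights, which down-weight variable libraries, and the latter is above the 5795 that the same weights gave labelled -Fe. The weights also moved the interaction count to 4577.

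The salicylic acid marker PR1 differed between the labels. It was lower by -1.98 labelled -Fe, and labelled +Fe it was at 73.1, 91.5 and 76.7 FPKM in wild type and 83.1, 112 and 97.1 FPKM in pad4, a difference of 0.27 that was not called (interaction -2.24, adjusted p = 2.01e-05). FMO1 gave -1.23 and -0.12 (interaction -1.12, adjusted p = 0.000275). EDS1 gave -0.78 and -0.18 (interaction -0.60, adjusted p = 0.0151). PAD4, EDS5 and PUB22 had similar differences under both labels, and their interaction estimates were -0.07 (SE 0.13), -0.05 and -0.01. CRK6 and RLP23 were lower under both labels, by -3.06 and -1.48 and by -2.60 and -1.64, with interactions called for each.

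A locus with no gene name in the table, XLOC_023392 at chr5:14088431-14089949 on chromosome 5, separated the genotypes under both labels. It was at 0, 0 and 0.0398 FPKM in wild type and at 16.2, 17.9 and 24.5 FPKM in pad4 labelled -Fe. Labelled +Fe it was at 0.233 FPKM or less in wild type and at 13.9, 17.3 and 15.2 FPKM in pad4. Its interaction was not called (adjusted p = 0.114). It was named after its values were seen.

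**Figure D5:**
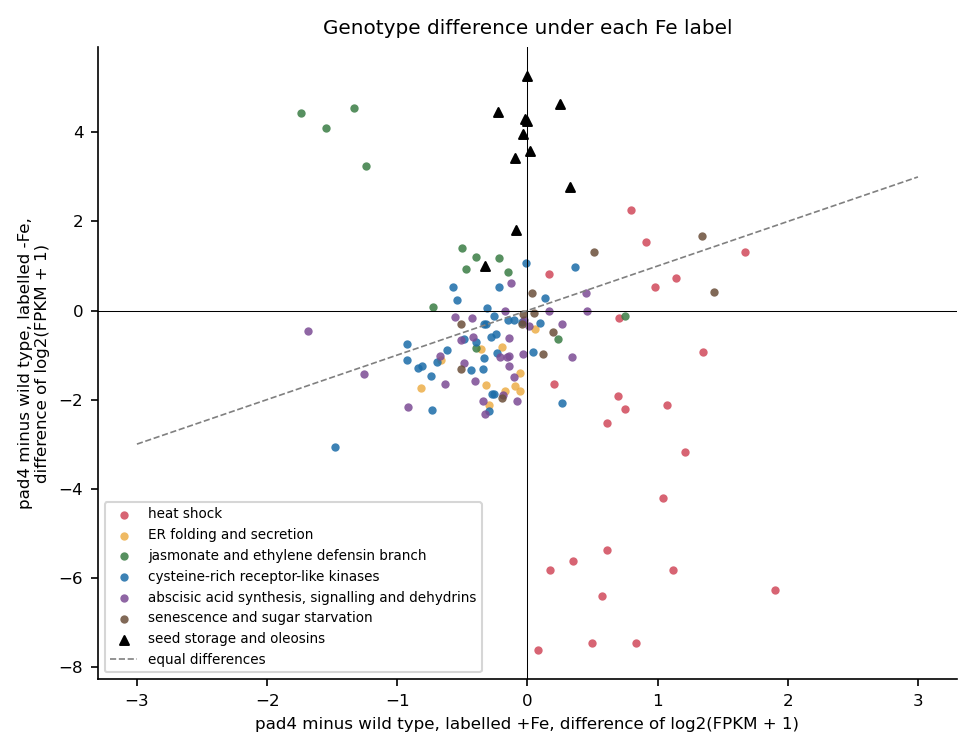
Genotype difference labelled -Fe (vertical axis) against that labelled +Fe (horizontal axis), both as pad4 minus wild type on the log2(FPKM + 1) scale, for tested members of 6 gene lists and 11 seed loci. Points on the dashed line have equal differences; defensin genes such as PDF1.2a (4.10 and -1.55) lie upper left, heat shock genes such as HSP23.6 (-6.27 and 1.90) lower right and seed genes such as SESA4 far above the line.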

How the data were processed

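RNA-seq values of 12 libraries were used as deposited. The authors' expression table gives FPKM per locus, per the file headers, with no counts. Per the submitters' processing notes, the genome build was TAIR10. Which aligner and counter were run, and whether strand was used, is not given in the sources used here, so antisense and overlapping genes cannot be told apart. The authors' deposited table of this contrast gives FPKM, a log2 fold change, a p-value and a q-value per locus, per the file headers.

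One limma fit (version 3.58.1, R 4.3.3, eBayes with trend, Benjamini-Hochberg) on log2(FPKM + 1) with a mean for each of the 4 groups over all 12 libraries gave the genotype contrasts and their interaction. All differences are on this scale, and they understate changes of low genes. Loci had 1 FPKM or more in at least 3 of the 6 libraries labelled -Fe. On data simulated for this contrast over 19403 loci, 45 of 100 changes of 0.5 log2 units and 94 of 100 of 1 log2 unit were recovered, with 10 false calls. The simulation changed far fewer loci than were called here. Its noise was independent between libraries, and none stood apart. Its recovery and false calls therefore do not bound those of the real fit. With 3 libraries against 3, an exact permutation test cannot go below p = 0.1.

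Symbols were taken from RefSeq. Lists held 629 genes in 30 groups, and the members and lists were chosen with earlier results of these data known. A gene split over several spans was represented by the span with the highest mean, and a locus joining genes was counted once. Genes named were the 12 largest rises and falls with a symbol, non-overlapping groups and a mean of 5 FPKM or more on the higher side, up to 4 called members of each list by smallest adjusted p, a fixed set of defence and Fe genes, the 10 smallest p and the 3 loci on each side of PAD4. Other genes were named after their values were seen. Alternatives were another pseudocount (0.1), other filters, quantile normalization, no trend, array weights, a replicate block, fewer libraries and leaving out each library. Promoter sequences were not analysed here. Python 3.11.15 drew the figures.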

Additional observations from a re-analysis of the deposited data

Results flagged for a closer look

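Among the 143 named genes tested, 109 had a genotype difference that differed between the libraries labelled -Fe and those labelled +Fe (interaction in limma, adjusted p under 0.05). Most of these genes were chosen for their difference labelled -Fe, which is part of the interaction, so this count is a description and is not read against all loci. The values below are the difference labelled -Fe minus the difference labelled +Fe, in units of log2(FPKM + 1). Those of genes listed at or near 0 depend on the pseudocount and are no fold. No explanation was tested for any of them.

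The most negative values were those of the heat shock genes. HSP22.0, HSP23.6, HSP17.6C and HSP21 gave -8.30, -8.17, -7.95 and -7.71. HSP18.2, HSP17.4, HSP26.5 and HSP17.6II gave -6.99, -6.95, -6.01 and -5.98. HSP17.6B and HSP17.6A gave -5.97 and -5.26, Hsp70b gave -6.08 and APX2 gave -5.32. In the endoplasmic reticulum, BIP2, BIP1, SDF2 and BIP3 gave -1.83, -1.64, -1.33 and -0.92.

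The most positive values belonged to defensin and seed genes. PDF1.3, PDF1.2c, PDF1.2a and PDF1.2b gave 6.17, 5.88, 5.65 and 4.48, and ERF6, PR4 and ORA59 gave 1.91, 1.39 and 0.81. SESA4, CRA1, SESA2 and CRU3 gave 5.27, 4.69, 4.39 and 4.31. SESA3, OLEO1, CRU2 and OLEO2 gave 4.25, 4.01, 3.57 and 3.53.

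The named salicylic acid and N-hydroxypipecolic acid genes given here were mostly more negative labelled -Fe. The whole salicylic acid synthesis and turnover list did not share this. Its median was -0.21 labelled -Fe and -0.36 labelled +Fe, with 5 lower members under each label. Of all loci, 14.9% were lower labelled -Fe and 5.71% labelled +Fe. PR1, PR2, NIMIN1 and NIMIN2 gave -2.24, -1.60, -1.47 and -1.18. DLO1, DMR6, PBS3 and ICS1 gave -1.85, -0.82, -0.68 and -0.66, and UGT74F2 gave 0.86. FMO1, UGT76B1 and ALD1 gave -1.12, -1.10 and -0.68. EDS1 gave -0.60, while TN3 and SNC1 gave 0.72 and 0.59.

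Among kinases, receptors and immune factors, CRK7, CRK38, CRK6 and CRK45 gave -1.97, -1.63, -1.58 and -1.50. FRK1, RLP23, MLO12 and MPK11 gave -1.22, -0.96, -0.66 and -0.62. WRKY38, WRKY6 and WRKY30 gave -1.50, -0.85 and -0.67, and WRKY26 gave 1.22. CYP71A12, the AT2G30760/CYP71A13 locus and PAD3 gave -1.59, -1.53 and -0.87, and MYB51 gave 1.25.

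Among hormone genes, RD26, NCED3, PP2CA and HAB1 gave -1.70, -1.70, -1.39 and -0.89. IAA5, GH3.5, GH3.3 and IAA6 gave -2.05, -1.71, -1.53 and -1.44. ACS2, ACS8, EBF2 and ACS7 gave -1.50, -1.19, -1.0 and -0.53. GA3OX1, GA20OX1 and GID1B gave -0.96, -0.85 and -0.65. The jasmonate genes CYP94C1 and AOC3 gave -1.05 and -0.65, and LOX4, VSP2 and AOS gave 0.95, 0.73 and 0.70.

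In metabolism and stress, NAP and ORE1 gave -1.76 and -1.09, and DIN1 and DIN10 gave 0.80 and 0.34. GSTU11, GSTU10 and GSTU4 gave -1.14, -0.85 and -0.76, and GSTF3 gave 1.44. PAP2 and 4CL3 gave -0.94 and -0.63. CYP81F2, MAM1, CYP79F1 and CYP83A1 gave 1.60, 0.62, 0.45 and 0.44. PHT1;4, PHT1;5 and SQD1 gave -0.81, -0.66 and -0.38. ZAT6, ZAT10 and ZAT12 gave 2.18, 1.09 and 0.73. PRR9 and GI gave 0.48 and -0.43, PSBX and PRK gave 0.42 and 0.38, and VTL5 gave 0.69. The root markers NRT2.1 and PHO1 gave 1.19 and 0.75.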

How the results depend on the processing

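Of 5631 called loci, adding a replicate block to the fit of all 12 libraries gave 5662, and a replicate block within the 6 libraries labelled -Fe called 1819 (697 higher, 1122 lower), beside 4006 without it. The labels do not say that a replicate number pairs libraries. Labelled -Fe, deviations of same-numbered libraries correlated at -0.02, -0.45 and -0.42, and those of wild-type replicate 2 and pad4 replicate 3 at 0.544. Whether libraries share a batch under other numbers was not tested. The threshold of 1 log2 unit gave 763. The remaining planned settings for this count stayed between 4006 and 6505. Leaving out each library of the contrast gave 4753 to 5378 called (2241 to 2585 higher, 2487 to 2793 lower), 2467 to 3239 for the interaction and -0.83 to -0.71 for PAD4. Array weights moved the interaction from 2926 to 4577 and the count labelled +Fe from 1814 to 6831, and leaving out the 4 libraries that stand apart moved the latter to 3149; the settings for the +Fe count were chosen after seeing the data. Of 142 named genes besides PAD4, 111 kept direction and call throughout, and 25 lost the call somewhere, 6 of them when a single library was left out. Another 4 gained a call under 1 or more settings. Reversals were seen for uncalled genes only: AT3G52390 (-0.04) turned to 0.0065 under quantile normalization and ran from -0.0869 to 0.0229 when a library was left out, and OEP7 (-0.03) turned to 0.0305 without the 4 libraries and ran from -0.0979 to 0.0527. The cause was not tested. FPKM carry no read number, so what depth limits cannot be given.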

Other observations

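STP1 and SWEET12, named after their values were seen, were higher in pad4 in the libraries labelled -Fe. STP1, a hexose importer, was at 37.5, 29.9 and 39.1 FPKM in wild type and at 124, 115 and 98.6 FPKM in pad4 (log2 difference 1.64, SE 0.10). SWEET12, a sucrose exporter, was at 24.2, 23.4 and 26.5 FPKM against 73.5, 70.3 and 63.2 FPKM (1.44, SE 0.09). Labelled +Fe, STP1 differed by 0.98 and was called, and SWEET12 differed by 0.17 and was not called.

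Called loci were spread over the chromosomes. The share called was 28.2% to 30.1% on the 5 nuclear chromosomes, against 5 of 71 loci of the plastid and 3 of 51 loci of the mitochondrion.

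HSP21, with the most negative difference of the loci named here, has a log2 fold change of -11.9 but a q-value of 0.471 in the authors' deposited table. CRU3 has an infinite fold there, with a q-value of 0.000495, and 14 of the loci marked as significant have infinite folds.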
